A study of Mus musculus with 2 samples.

Results

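The broad H3K27me3 domains of chondrocytes were the 670 peaks of 10 kb or more among the 19359 peaks called over input, which was 3.46% of them. They covered 12.0005 Mb of the 46.9 Mb under all peaks, or 25.6% of the covered length. These values depend on the width rule: a limit of 20 kb left 165 domains with 11.02% of the length, and joining peaks less than 5 kb apart first gave 1801 domains with 64.6%. Members were chosen by the width of the called interval alone. Fold enrichment, pileup and q-value come from the same ChIP against the same input, so they are given here as a description and were not tested. Developmental transcription factors were frequent among the genes they covered. Of 326 protein-coding genes in lists of such factors, 149 (45.7%) overlapped a broad domain, against 2.16% of all 21887 protein-coding genes. This 45.7% became 27.3% with the limit of 20 kb and 61.3% with peaks joined first. The lists were drawn up with earlier results of these data known, so these shares are a description.

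Trimethylation of lysine 27 on histone H3 is deposited by Polycomb repressive complex 2 (PRC2), whose catalytic subunit is Ezh2 or Ezh1 and whose subunit Eed binds the mark and so helps it spread along chromatin. The mark is found over genes kept silent in a lineage, and over clusters of developmental regulators such as the Hox genes it can form long continuous blocks. In vertebrates PRC2 is recruited largely at unmethylated CpG-rich DNA. In cartilage, PRC2 is studied for how it keeps non-cartilage programmes and signalling pathways in check in cells that are already committed.

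The study used chondrocytes released from the rib cartilage of newborn CD1 mice with collagenase and cultured overnight, and asked which genes carry the mark in these cells. The cells were wild type and untreated, and the number of animals is not given in the sources used here. Chromatin was cut by enzyme and precipitated with an antibody against H3K27me3, and 1 ChIP library and 1 input library (DNA that was not precipitated) were sequenced. After filtering they held 17237574 and 17004082 tags. The groups follow the titles of the libraries, and the antibody tags of the deposit contradict these titles. There was no replicate, so no value below has an error between samples, and intervals of shares are 95% Wilson intervals that cover counting error only. Expression was not measured in these libraries, and the identity of the cells was not checked here by expression of cartilage markers. A rib preparation can hold other cell types, and their part in the mark was not tested.

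The sequences that the broad domains lie on are shown first for gene starts under the 10 widest domains. Each run is the 250 bases before an annotated gene start in RefSeq (GRCm38.p6), written 5′ to 3′ along the gene, with CpG dinucleotides in capitals because CpG content is the sequence feature linked to PRC2 recruitment. For each of these domains with a listed developmental gene in the promoter table, the start nearest to the middle of the domain was taken.
Dmbx1, chr4:115939927-115940176, minus strand: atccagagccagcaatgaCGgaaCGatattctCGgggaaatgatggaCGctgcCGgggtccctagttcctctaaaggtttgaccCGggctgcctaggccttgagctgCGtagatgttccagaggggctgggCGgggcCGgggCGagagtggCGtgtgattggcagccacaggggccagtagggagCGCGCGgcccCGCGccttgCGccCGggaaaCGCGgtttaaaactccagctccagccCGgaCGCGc
Evx1, chr6:52313248-52313497, plus strand: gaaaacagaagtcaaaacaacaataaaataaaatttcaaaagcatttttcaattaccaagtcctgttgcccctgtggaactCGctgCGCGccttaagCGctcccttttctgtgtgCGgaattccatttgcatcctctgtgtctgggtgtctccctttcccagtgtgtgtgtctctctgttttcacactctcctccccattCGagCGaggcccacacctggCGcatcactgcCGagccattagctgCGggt
Zic4, chr9:91368722-91368971, plus strand: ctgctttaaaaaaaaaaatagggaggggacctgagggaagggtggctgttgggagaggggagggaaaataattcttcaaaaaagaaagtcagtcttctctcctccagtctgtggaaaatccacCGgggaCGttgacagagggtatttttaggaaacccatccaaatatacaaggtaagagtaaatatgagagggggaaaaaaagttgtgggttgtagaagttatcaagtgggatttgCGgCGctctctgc
Zic5, chr14:122465659-122465908, minus strand: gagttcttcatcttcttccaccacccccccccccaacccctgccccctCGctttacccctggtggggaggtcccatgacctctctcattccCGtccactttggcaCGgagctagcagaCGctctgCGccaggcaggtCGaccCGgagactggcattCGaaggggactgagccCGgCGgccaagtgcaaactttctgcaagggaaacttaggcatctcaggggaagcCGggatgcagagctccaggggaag
Hoxd4, chr2:74721728-74721977, plus strand: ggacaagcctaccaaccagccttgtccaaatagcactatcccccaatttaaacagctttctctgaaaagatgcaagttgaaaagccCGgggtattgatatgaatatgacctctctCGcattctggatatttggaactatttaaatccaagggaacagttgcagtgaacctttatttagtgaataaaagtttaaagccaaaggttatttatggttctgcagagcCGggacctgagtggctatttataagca
The windows of Dmbx1, a homeobox gene of the developing brain, and Hoxd4, a gene of the HoxD cluster, stand at opposite ends. The Dmbx1 window held 23 CpG at 65.2% G and C, an observed to expected ratio of 0.880, and lay 29.4 kb and 44.1 kb from the edges of a 73.5 kb domain. The Hoxd4 window held 3 CpG at 40.4% G and C, a ratio of 0.294, and lay 15.4 kb and 40.4 kb from the edges of a 55.8 kb domain. Evx1, a homeobox gene next to the HoxA cluster, had 10 CpG and a ratio of 0.676. The zinc finger genes Zic4 and Zic5 had 4 and 11 CpG and ratios of 0.376 and 0.458. The Zic4 start lay 3.79 kb from an edge of its domain and the Zic5 start 22.0 kb from the nearer edge. The 5 windows therefore ranged from CpG-poor to CpG-rich.

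Pairs of broad domains were often parted by a narrow gap, and several of these gaps held a gene start. The following windows lie in the gaps of under 5 kb that border 1 of the 10 widest domains and have a broad domain on the other side as well. They were chosen after the gaps had been seen.
Hoxa13, chr6:52260881-52261130, minus strand: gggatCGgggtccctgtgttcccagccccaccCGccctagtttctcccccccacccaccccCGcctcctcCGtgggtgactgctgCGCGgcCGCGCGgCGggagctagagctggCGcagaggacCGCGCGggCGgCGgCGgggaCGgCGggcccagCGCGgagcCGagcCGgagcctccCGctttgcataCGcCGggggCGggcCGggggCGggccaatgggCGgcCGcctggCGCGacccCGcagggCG
Hoxd1, chr2:74762730-74762979, plus strand: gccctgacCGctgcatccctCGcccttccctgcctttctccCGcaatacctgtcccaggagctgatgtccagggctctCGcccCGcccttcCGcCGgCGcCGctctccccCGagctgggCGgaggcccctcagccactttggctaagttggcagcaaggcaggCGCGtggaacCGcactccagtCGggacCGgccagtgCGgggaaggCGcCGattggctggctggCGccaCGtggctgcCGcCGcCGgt
Hoxa13, the last gene of the HoxA cluster and a regulator of distal limb identity, started in a gap of 1.51 kb between the 36.1 kb domain over Hoxa9 to Hoxa11 and the 70.4 kb domain over Evx1. Its window held 35 CpG at 80.0% G and C, with a ratio of 0.875. Hoxd1 started in a gap of 1.54 kb next to the domain over Hoxd3 and Hoxd4, and its window held 24 CpG with a ratio of 0.759. In number of CpG both windows in gaps were above the 5 windows under the widest domains, but in the observed to expected ratio Dmbx1 (0.880) was above both.

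Most broad domains were close to the lower width limit, and the widest reached 105 kb. The median width was 14.5 kb, with quartiles of 11.6 and 19.8 kb. There were 360 domains of 10 to 15 kb, 145 of 15 to 20 kb, 107 of 20 to 30 kb, 44 of 30 to 50 kb and 14 of 50 kb or more. Enrichment was low and even among them. The mean fold enrichment over a domain had a median of 3.497 (quartiles 3.40 and 3.602), and the pileup, the average depth of ChIP fragments across a domain, a median of 12.6 (quartiles 12.1 and 13.1). Shorter peaks had medians of 3.15 and 10.99. The median fold enrichment went from 3.44 at 10 to 15 kb to 3.72 at 50 kb or more. Mean q-values were at most 0.05 in all 670 broad domains (highest 0.0404) and in 59.4% of shorter peaks. At a limit of 0.01 the share was 60.3% of broad domains and 9.26% of shorter peaks, against 11% of all peaks.

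The limit of 10 kb falls in a continuous distribution and parts like from like. Just inside lay a domain of 10003 bp at 3.63-fold over Caly and Prap1, 1 of 10007 bp at 3.27-fold in Cpeb1 and 1 of 10027 bp at 3.28-fold at Nol4. Just outside lay a peak of 9966 bp at 3.86-fold over Tlx3, 1 of 9954 bp at 3.36-fold without a gene record and 1 of 9903 bp at 3.22-fold at Lyzl6. Tlx3, a homeobox factor of neuron identity, is thus not among the members, although its fold enrichment was above that of all but 4 of them.

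**Figure D1:**
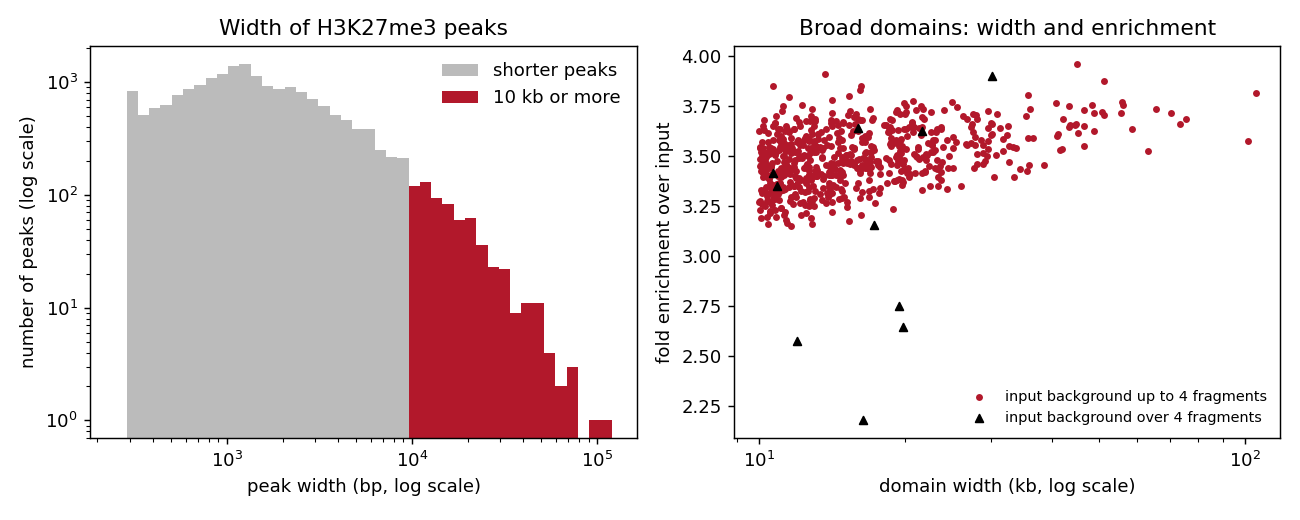
Left, number of peaks (log scale) by width in bp (log scale), with the 670 broad domains in red and the 18689 shorter peaks in grey. Right, fold enrichment over input of each broad domain by its width in kb (log scale), where black triangles mark the 10 domains with an approximate input background over 4 fragments, 4 of which lie under 3-fold.

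Several of the widest domains lay over patterning genes, alone or in clusters. The widest, at chr15:102875900-102980983, ran for 105 kb over Hoxc13, Hoxc12, Hoxc11, Hoxc10 and Hoxc9, the non-coding RNA Hotair and Mir196a-2, and ended 9.56 kb before Hoxc8. Its fold enrichment was 3.81 and its pileup 14.4. The widest but one, at chr9:61051517-61152899, was 101 kb at 3.57-fold and held no protein-coding gene. A domain of 75.5 kb at chr7:79529909-79605417 had a fold enrichment of 3.68. It overlapped the non-coding genes Mir9-3hg and Gm31740, and its last 12.1 kb lay over part of Rhcg, a 24.3 kb gene for an ammonium transporter of epithelia. The Dmbx1 domain of 73.5 kb had 3.66-fold enrichment, and the Evx1 domain of 70.4 kb had 3.72-fold. A domain of 65.6 kb at chr11:96159004-96224560 held Hoxb13 and Ttll6, a tubulin-modifying enzyme, and one of 63.1 kb at chr5:119791924-119855013 held Tbx5, a T-box factor of forelimb and heart. On chromosome 9 a domain of 58.4 kb covered Zic4 whole and met only an end of Zic1, which was 83.4% covered by 2 domains. Zic2 and Zic5 shared 56.1 kb on chromosome 14. In the 10 widest domains, 8 held at least 1 gene of the transcription factor lists.

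Domains over listed transcription factors had the largest median width of the 5 kinds of content, and domains over other protein-coding genes were the most numerous. Each domain was put in the first kind that applied, in the order transcription factor list, signalling list, other protein-coding, non-coding or pseudogene, no gene. A wider domain meets more genes, so this order by itself moves wide domains towards the first kinds, and the widths are a description. Domains over listed transcription factors numbered 145 (21.6%, interval 18.7 to 24.9%), and their medians were 20.1 kb in width and 3.62 in fold enrichment. The 16 domains over listed signalling genes had medians of 15.4 kb and 3.504-fold. The 289 domains with other protein-coding genes had medians of 13.1 kb and 3.46-fold. A further 117 domains held non-coding genes or pseudogenes alone, with medians of 15.3 kb and 3.48-fold, and 103 held no gene of the gene table, with medians of 13.0 kb and 3.44-fold. In covered length, domains over transcription factors took 3.58 Mb, other protein-coding genes 4.54 Mb, non-coding genes 2.11 Mb and gene-free domains 1.51 Mb.

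Most broad domains overlapped 1 protein-coding gene or none. Of the 670, 391 overlapped 1 such gene, 220 none, 45 had 2, 10 had 3, 2 had 4, 1 had 5 and 1 had 7. The domain with 7, at chr2:74656203-74704709, was 48.5 kb wide at 3.76-fold. It covered Hoxd13 to Hoxd9 whole and 62.3% of Evx2, and met Hoxd8, which begins at 74704615, only at its edge. The domain with 5 was that of the HoxC cluster. Those with 4 were the HoxA domain from Hoxa9 to Hoxa13 and a domain of 19.8 kb at chr7:45168198-45187963 over Slc17a7, a vesicular glutamate transporter, with Gfy, Pth2 and Kash5.

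Coverage differed between families of developmental factors. All 12 LIM homeobox genes (Lhx1 to Lmx1b) overlapped a broad domain, as did 8 of 9 Pax genes, 4 of 5 Zic genes, 10 of 14 Nkx genes, 41 of 62 other homeobox genes and 24 of 39 Hox genes. T-box genes had 7 of 17, lineage bHLH factors 14 of 42, Sox genes 6 of 19, Pou genes 4 of 15 and forkhead genes 9 of 44. Irx genes and the genes related to sine oculis (Six2, Six3 and Six6) each had 3 of 6, and Dlx and Gata genes 2 of 6. The Klf and Stat lists had 0 of 17 and 0 of 7, and their intervals reach 18.4% and 35.4%, so they cannot be told apart from the 2.16% of all protein-coding genes. A wide interval overlaps more genes because of its size, and the lists were drawn up with earlier results of these data known, so the counts describe this peak list.

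Several genes lay whole under a domain. Nkx2-3, a homeobox gene of spleen and gut mesoderm, lay in 51.2 kb at 3.88-fold, and Nkx2-5, a heart factor, in 43.4 kb at 3.75-fold. Hand2, a bHLH factor of heart and limb, lay in 51.2 kb at 3.70-fold, Olig2, which specifies motor neurons and oligodendrocytes, in 43.6 kb at 3.66-fold, and Neurog2, a proneural factor, in 26.7 kb at 3.69-fold. Genes of eye and forebrain had wide domains too, with Six3 in 48.9 kb, Vax1 in 46.5 kb and Barhl2 in 44.6 kb. Further genes wholly covered were Lhx1 (22.95 kb), Isl2 (15.1 kb), Irx4 (22.0 kb), Irx6 (16.3 kb), Dlx1 (18.4 kb), Dlx4 (16.9 kb), Six6 (29.9 kb) and Tbx1 (12.1 kb). Factors of endoderm and neural tissue were among them, with Foxa1 in 27.8 kb, Foxb1 in 27.8 kb, Foxb2 in 22.7 kb, Sox14 in 35.9 kb, Sox21 in 22.99 kb and the endothelial factor Sox17 in 20.3 kb. In all, 128 protein-coding genes were wholly covered, or 0.585% of those in the table, and their median length was 4.74 kb against 17.2 kb for all protein-coding genes.

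**Figure D2:**
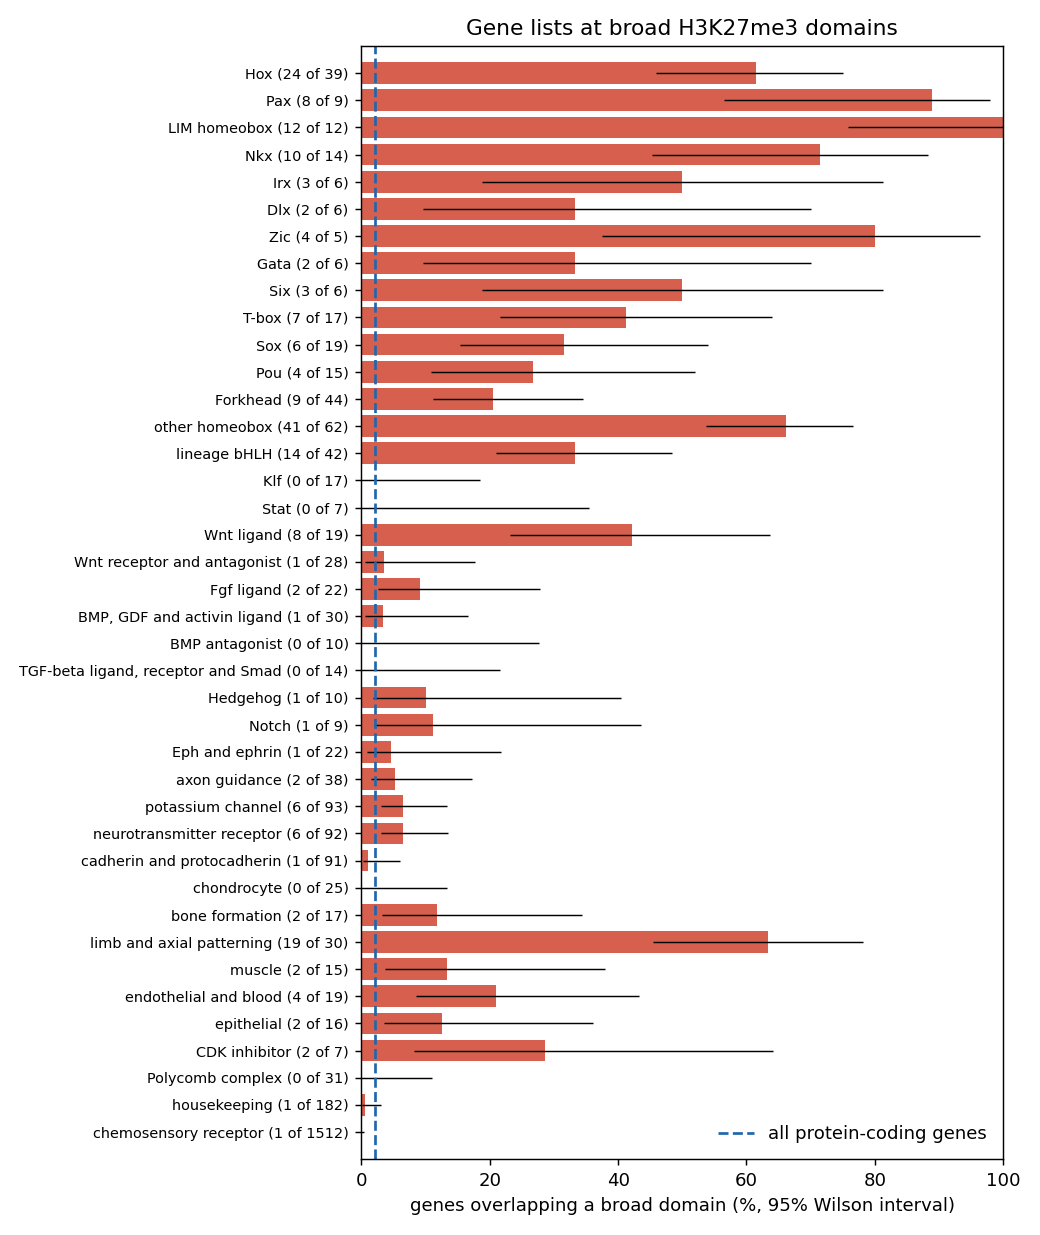
Share of the genes of each list that overlap a broad domain (bars, in percent) with 95% Wilson intervals, and the number of genes beside each list name. The dashed line is the 2.16% of all protein-coding genes, and the lists of homeobox families and limb and axial patterning lie far to the right of it, while the chondrocyte and Polycomb lists stand at 0 with intervals that reach past it.

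Among 25 chondrocyte genes, such as Col2a1, Acan and Sox9, none overlapped a broad domain. With an interval that reaches 13.3%, this count cannot be told apart from the 2.16% of all protein-coding genes. Shorter peaks alone overlapped 2 of the 25, Ihh and Runx3 (against 13.2% of all protein-coding genes), which encode a growth plate hedgehog ligand and a Runt factor. The nearest edge of Ihh, the end of this minus-strand gene, lay 0.850 kb beyond a run of 4 broad domains over Wnt6, Wnt10a, Cdk5r2, Fev, Cryba2 and Cfap65, and the start of Ihh lay 7.21 kb beyond it. Joining peaks less than 5 kb apart before the width was measured brought Ihh in, and so did the authors' annotation, which reaches 5 kb. The list of limb and axial patterning genes had 19 of 30 (63.3%). It included Pitx1 (31.3 kb, hindlimb identity), Hand2 and Osr2 (18.8 kb) wholly covered. Part of this list is made of homeobox and T-box genes that also stand in the family lists above.

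Regulators of proliferation were marked at the Cdkn2 locus. Among 7 CDK inhibitor genes, Cdkn2a and Cdkn2b overlapped broad domains and the other 5 overlapped no peak. Cdkn2b lay whole under a domain of 20.7 kb at chr4:89295559-89316225 with 3.66-fold enrichment. Cdkn2a, which encodes the Ink4a and Arf proteins from separate starts, was covered over 97.0% of its length by a domain of 29.5 kb at chr4:89264468-89294009 with 3.64-fold enrichment. The start at 89294619 lay in the gap of 1.55 kb between these domains, and another start lay under the wider domain, 11.8 kb from its edge. None of 31 genes of the Polycomb complexes overlapped a broad domain, and 4 of them (Bmi1, Cbx7, Cbx8 and Phc2) overlapped shorter peaks alone. Both counts are near the shares of all protein-coding genes, 2.16% and 13.2%.

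Among signalling genes, Wnt ligands were the list with most members under broad domains. In all 17 of 202 signalling genes (8.42%) overlapped a broad domain, and 71 more overlapped shorter peaks alone, where the share of all protein-coding genes is 13.2%. The 8.42% became 1.98% with a width limit of 20 kb and 22.8% when peaks within 5 kb were joined first. Wnt ligands accounted for 8 of them, out of 19. Wnt1 (24.6 kb, 3.504-fold) and Wnt10a (32.6 kb, 3.47-fold) were wholly covered, and Wnt6, Wnt3, Wnt3a, Wnt7a, Wnt8b and Wnt9b in part. Receptors and antagonists of the pathway had 1 of 28, the agonist Rspo1. Fgf ligands had 2 of 22, Fgf8 (17.0 kb, wholly covered) and Fgf9. The BMP family had Gdf6 of 30, Hedgehog genes Shh of 10, and Notch genes Dll1 of 9. No gene of the TGF-β ligands, receptors and Smads (14 genes) or of the BMP antagonists (10 genes) overlapped a broad domain, and the TGF-β list overlapped no peak of any width. The intervals of these 2 lists reach 21.5% and 27.8%, so their counts cannot be told apart from the shares of all protein-coding genes, 2.16% for broad domains and 13.2% for shorter peaks alone. The same holds for 1 of 28 and 1 of 30, and 2 of 22 has an interval of 2.53 to 27.8%.

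Further lists covered genes of other lineages and genes chosen for comparison. Membrane and neural genes had 13 of 276 (4.71%, interval 2.77% to 7.89%), against 2.16% of all protein-coding genes. Among them were Kcna1 (27.7 kb), Kcnk4 (11.5 kb) and Kcnk15 (10.0 kb), which encode potassium channels and were wholly covered. Shorter peaks alone overlapped 133 more (48.2%, interval 42.4% to 54.1%), against 13.2% of all protein-coding genes. Any overlap of a gene body counted, so a long gene meets a peak more readily. Gene length was not adjusted for in the shares of any list. Endothelial and blood genes had 4 of 19 under broad domains (interval 8.51% to 43.3%) and 4 under shorter peaks alone. Epithelial genes had 2 of 16 (3.5% to 36.0%) and 6, and muscle genes had 2 of 15 (3.74% to 37.9%) and 7, the muscle pair being Pax3 and Pax7, which the Pax list also holds. In the bone formation list, Sost, an antagonist of Wnt signalling made by osteocytes, was wholly covered by 17.6 kb. Housekeeping genes had 1 of 182 (interval 0.0971% to 3.05%), which cannot be told apart from the share of all protein-coding genes. This was Psmb8, an immunoproteasome subunit induced by interferon and not a gene of the constitutive proteasome. Chemosensory receptors had 1 of 1512, Olfr63 (interval 0.0117% to 0.374%).

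A larger share of broad domains than of shorter peaks lay over gene starts and whole genes. The authors' annotation joined each peak to Ensembl gene records within 5 kb, and 558 broad domains (83.3%, interval 80.3 to 85.9%) had a record, against 57.3% of shorter peaks. Of these 558, 348 (62.4%) overlapped the start of a recorded gene or its whole length, against 8.60% of shorter peaks with a record. A wide interval meets a start more often by its width, and over all broad domains this share went from 44.7% at 10 to 15 kb to 85.7% of the 14 domains of 50 kb or more. The 1082 records named 680 symbols. Of the records, 27.4% lay inside the domain, 21.6% had their start under it, 12.9% their end, 12.3% surrounded it, and 15.3% and 10.4% had the domain upstream or downstream. Among records of shorter peaks 51.1% surrounded the peak.

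Per covered length the difference in starts was small, except for transcription factors. Broad domains held annotated starts of 245 protein-coding genes, 20.4 per Mb, and shorter peaks 575, or 16.5 per Mb, against 6.65 per Mb over the chromosomes. Of all genes with an annotated start, 1.4% had one under a broad domain. Starts of listed transcription factors stood at 6.83 per Mb in broad domains (82 genes) and 0.545 per Mb in shorter peaks (19 genes), against 0.0867 per Mb over the chromosomes. The lists were drawn up with earlier results of these data known, so this difference describes the peak list and was not tested.

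Narrow gaps beside broad domains were dense in gene starts. There were 880 gaps of under 5 kb next to at least 1 broad domain, of median 1.67 kb, and they held starts of 67 genes, 37.2 per Mb. The 82 gaps with a broad domain on both sides, of median 1.498 kb and 0.135 Mb in all, held starts of 16 genes, 119 per Mb, and 12 of the 16 were in the transcription factor lists. These 12 were Emx2, Foxd3, Foxl2, Hmx1, Hoxa13, Hoxd1, Lhx2, Nkx6-1, Onecut1, Pax1, Sox2 and Uncx. The other 4 were Cdkn2a, Dmrt3, Grik3 and Gm960. Gaps of under 5 kb between shorter peaks held 30.1 starts per Mb. Promoter windows in gaps between broad domains had a median CpG ratio of 0.836 (quartiles 0.772 and 0.945), against 0.654 under broad domains. Gaps beside at least 1 broad domain had 0.753. Shorter peaks showed the same order, with 0.652 in gaps between them and 0.462 under them. Sox2, a factor of neural and pluripotent cells, started in a gap of 1.27 kb, and a domain of 26.6 kb covered 67.5% of its length. The gaps were noticed in these data, their read depth is not in the peak list, and whether the mark was absent there or reads were fewer was not tested. A gene with several annotated starts can count both in a gap and under a domain.

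Domains were spread to both sides of a gene start. Annotated starts of exactly 1 protein-coding gene lay under 198 domains. Their median reach from the start was 7.26 kb upstream (quartiles 4.84 and 10.8) and 8.54 kb downstream (quartiles 5.26 and 12.6). Genes without an annotated start could not be counted here, so some of these domains overlapped a further gene. The 55.6 kb domain with the largest upstream reach (53.2 kb, from Cd207) also overlapped Vax2. In 110 of the 198 (55.6%, interval 48.6 to 62.3%) the longer reach was downstream, and 74 (37.4%) ran past the end of the gene with that start. Among the 245 genes with a start under a broad domain, any peak lay 5 kb upstream in 81.2% and 5 kb downstream in 84.1%, and 20 kb away in 30.6% and 33.1%. For starts under shorter peaks these shares were 24.0% and 28.9% at 5 kb, and 11.3% and 7.65% at 20 kb. The groups were set by peak width, so a difference within some kb of the start follows from the rule and is no result.

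**Figure D3:**
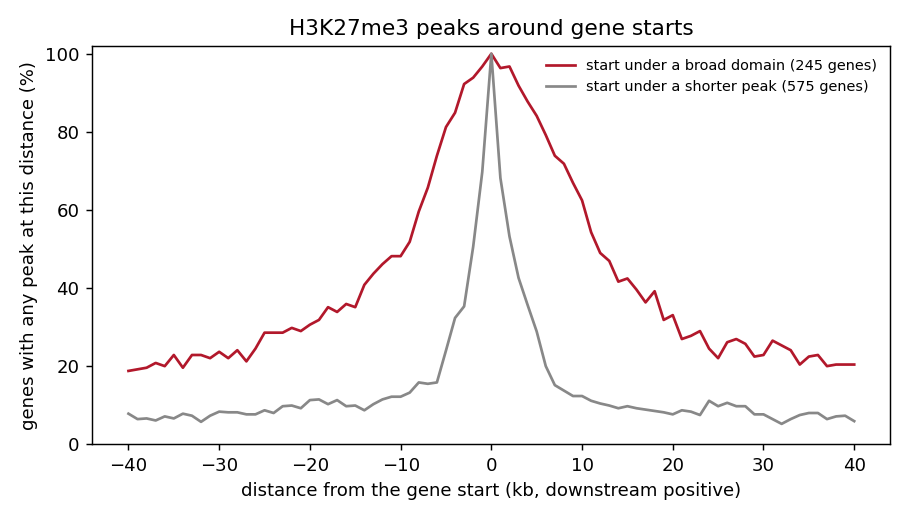
Percent of genes with any H3K27me3 peak at each distance in kb from the gene start, for the 245 genes with a start under a broad domain (red) and the 575 with a start under a shorter peak (grey). Both lines are at 100% at the start and differ near it by construction, since the groups were set by peak width, and at 10 kb downstream they stand at 62.4% and 12.3%.

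Promoters under broad domains were of intermediate CpG content. The observed to expected CpG ratio of the window from 250 bases before to 50 after the start had a median of 0.654 in the 245 genes under broad domains (interval of the median 0.610 to 0.701). It was 0.462 in the 571 genes under shorter peaks alone, 0.581 in genes under no peak, 0.839 in 144 housekeeping genes and 0.332 in 19 chondrocyte genes. A ratio over 0.6 was found in 58.4% of the promoters under broad domains, in 34.5% of those under shorter peaks and in 48.3% of all promoters of the table. Within the broad domains, the 82 listed transcription factors had a median of 0.688 and the other 163 genes 0.635. The 146 listed transcription factors with no start under a broad domain had 0.675, and the intervals of both medians overlapped (0.593 to 0.754 and 0.602 to 0.742). Lowest among promoters under broad domains were Gm11938 (0.0769) and Cga (0.0784), the common subunit of pituitary glycoprotein hormones, and highest were Nt5c2 (1.18) and Six2 (1.13).

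**Figure D4:**
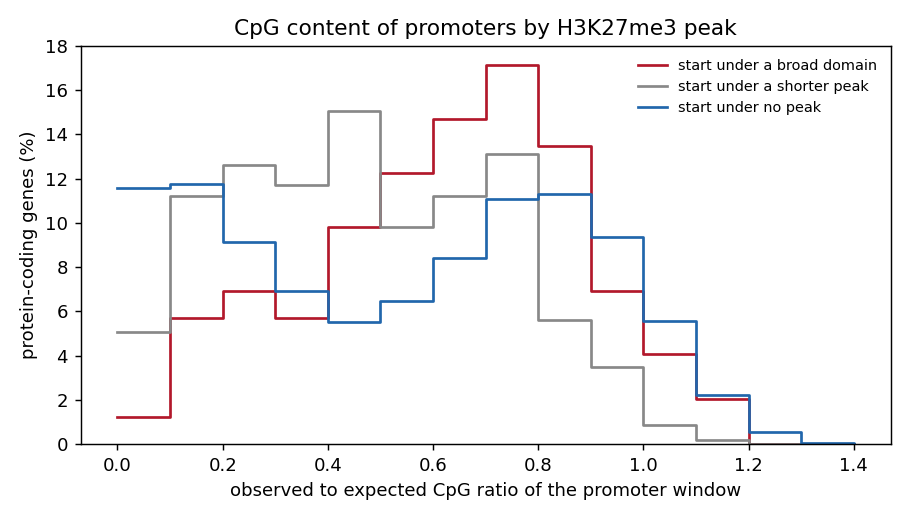
Percent of protein-coding genes in each bin of 0.1 of the observed to expected CpG ratio of the promoter window, for starts under a broad domain (red), under a shorter peak alone (grey) and under no peak (blue). Starts under no peak form 2 humps, while starts under broad domains form 1 that is highest between 0.7 and 0.8.

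Part of the broad domains came in runs. The median gap to the nearest broad domain was 80.7 kb, and 292 domains (43.6%, interval 39.9 to 47.4%) had another within 50 kb. Joining domains across gaps of under 50 kb gave 489 runs, of which 378 were lone domains, 78 had 2, 16 had 3, 7 had 4, 4 had 5, 2 had 6 and 4 had 7. A peak of any width lay within 5 kb of 91.0% of broad domains and of 64.4% of shorter peaks, and around a broad domain the median number of shorter peaks within 50 kb was 6.

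The 4 runs of 7 differed in what they held. The run on chromosome 9 from 60934031 to 61238003 spanned 304 kb, of which 89.1% was covered, and overlapped no protein-coding gene. It lay between Uaca, 53.6 kb away, and Tle3, a Groucho family co-repressor, 134.3 kb away, and its widest domain overlapped non-coding genes of the RefSeq table such as I730028E13Rik. The run on chromosome 19 (248 kb, 86.1% covered) held Pax2, a regulator of kidney and optic development, and reached to 22.4 kb from Hif1an. The first run on chromosome 11 (233 kb, 73.8% covered) was the HoxB cluster, with Hoxb13, Hoxb9, Hoxb8, Hoxb7, Hoxb3 and Hoxb1. The second (216 kb, 57.9% covered) lay 162 kb beyond Hoxb1 within Skap1, an adaptor protein of T cells. Runs of 6 lay over Cdh22 and at Sox1, and a run of 5 on chromosome 2 (108 kb) lay beyond the HoxD cluster, 161 kb from Mtx2, with no protein-coding gene.

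The genes with most covered length were long, and most were covered by several domains. Skap1 had 136 kb of its 295 kb under broad domains, the most of any gene, and Pax2 76.2 kb of 91.7 kb. They were followed by Cdh22, a cadherin of the brain, with 58.9 kb of 123.4 kb, Tbx5 with 58.5 kb of 88.7 kb under 1 domain, and Pde11a, a phosphodiesterase, with 53.9 kb of 353 kb. The deposited annotation placed a broad domain over the starts of Skap1 and Tbx5, and none over those of Cdh22 and Pde11a.

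Domains without a gene record were 112 in number and much like the others in shape. Their median width was 14.0 kb against 14.6 kb with a record, and their median fold enrichment 3.45 against 3.51. A mean q-value of at most 0.01 was reached by 45.5% (interval 36.6 to 54.8%) of them and by 63.3% (59.2 to 67.2%) of those with a record. The RefSeq table still placed a gene in 56 of the 112, and a protein-coding gene in 8. The median distance to the nearest protein-coding gene was 36.3 kb (quartiles 15.7 and 82.6), and the largest was 319 kb. Another broad domain lay within 50 kb of 57 (50.9%).

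The widest domains without a record bordered developmental loci in part. The widest was the 101 kb domain between Uaca and Tle3, and others of 46.6 kb and 35.8 kb lay in the same run. A domain of 40.999 kb on chromosome 19 lay 77.5 kb from Pax2. A domain of 38.5 kb at chr9:61831617-61870113 lay 413 kb from Tle3 and 43.2 kb from Rplp1, a ribosomal protein gene.

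By chromosome the domains were uneven, and the X chromosome had none. Chromosome 2 held the most (81), and chromosome 19 was densest at 0.636 per Mb, followed by chromosome 11 at 0.566 and chromosome 2 at 0.445. Chromosome 15 had the fewest per Mb of the autosomes, 0.106, with 11 domains, although it holds the widest. Over all autosomes the density was 0.272 per Mb, and 3.49% of autosomal peaks were broad. Peaks of any width were also sparse on the X chromosome, at 0.809 per Mb against 7.81 per Mb on the autosomes, a ratio of 0.103. Of the X peaks, 0 of 138 reached 10 kb. With a count of 0 taken to allow 3, this allows a share of up to 2.17% and a density of up to 0.0645 times that of the autosomes. This limit is not a Wilson interval. Joining peaks less than 5 kb apart first gave 7 X domains among 1801, a ratio of 0.0562.

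**Figure D5:**
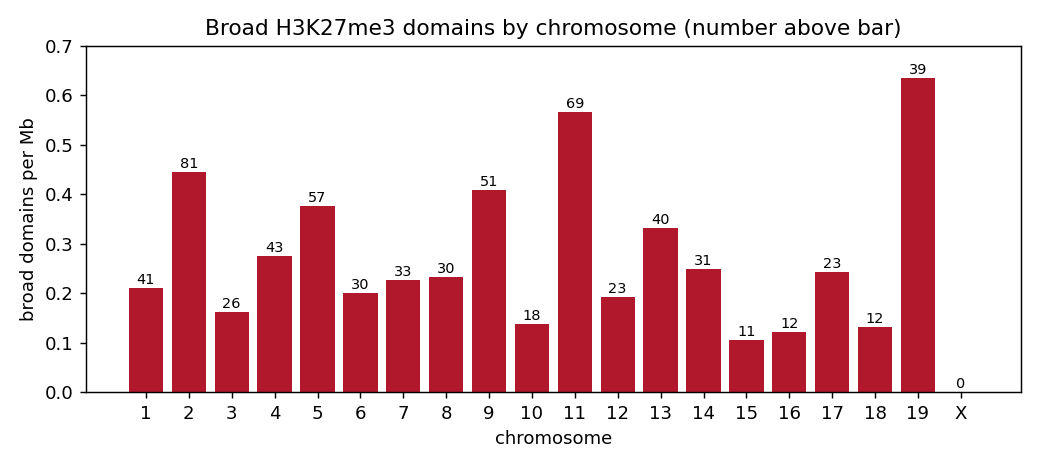
Broad domains per Mb of each chromosome, over the span up to the last annotated gene, with the number of domains above each bar. Chromosomes 19, 11 and 2 are the highest, and X has 0.

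MicroRNA genes were among the records under broad domains, and several belonged to families known from neural or Hox loci. Of 1005 microRNA hairpins with a known position, 19 (1.89%) lay under a broad domain, near the 2.16% of protein-coding genes. All 3 genes of miR-9, a neuronal microRNA, were under broad domains on separate chromosomes, with Mir9-1 in 24.9 kb (3.77-fold), Mir9-2 in 18.7 kb (3.57-fold) and Mir9-3 in 28.0 kb (3.71-fold). All 3 genes of miR-196, which sit in Hox clusters and target Hox transcripts, were covered as well, with Mir196a-1 in 30.2 kb, Mir196a-2 in 105 kb and Mir196b in 36.1 kb. Mir10b of the HoxD cluster was covered (55.8 kb) and Mir10a was not. Mir129-2 lay in 18.8 kb, Mir7k in 30.2 kb and Mir375, a microRNA of endocrine cells, in 16.1 kb. Mature sequences from RefSeq are shown because a family acts through its seed (bases 2 to 8), printed in capitals. Both arms are shown for miR-9 and 1 form for each of the others. The 3p arms of miR-10b, miR-196a, miR-196b and miR-129-2 are left out. For Mir375 only the 5p arm was among the sequences used, so a seed of its other arm is not considered.
mmu-miR-9-5p: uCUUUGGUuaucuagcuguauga
mmu-miR-9-3p: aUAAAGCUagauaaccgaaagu
mmu-miR-196a-5p: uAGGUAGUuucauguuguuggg
mmu-miR-196b-5p: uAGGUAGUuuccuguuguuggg
mmu-let-7k: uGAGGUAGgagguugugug
mmu-miR-10b-5p: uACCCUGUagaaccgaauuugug
mmu-miR-129-5p: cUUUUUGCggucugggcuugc
mmu-miR-375-5p: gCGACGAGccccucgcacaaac
By seed the printed forms make 1 group of more than 1 member, the miR-196 products with AGGUAGU. Among them let-7k (GAGGUAG), miR-10b (ACCCUGU) and the others each had a seed of their own. The 3 miR-9 genes give the same pair of mature forms.

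Some broad domains lay on repeated small RNA genes or on regions of high input, which bears on how their values read. Copies of such genes can share a domain, as tRNA genes on chromosome 3 did. Intervals for them count each copy as separate and are too narrow where copies are neighbours. Among 63 annotated rRNA genes, 30 overlapped a broad domain (47.6%, interval 35.8% to 59.7%), and 22 of 408 tRNA genes did (5.39%, interval 3.59% to 8.03%), against 1.82% of genes of any kind, 2.40% of lncRNA genes, 0.896% of snRNA genes and 0.362% of pseudogenes. The highest fold enrichment of all, 3.96, was that of a 45.1 kb domain at chr3:96320240-96365297 over tRNA genes and the snRNA gene Rnu1b1, at an approximate input background of 3.08 fragments. Next were a 13.6 kb domain over Jak3, a cytokine receptor kinase, with Insl3 and B3gnt3 (3.91-fold), the Gm21188 domain (3.90-fold), the Nkx2-3 domain and a 10.7 kb domain of Lhx2, a LIM homeobox gene (3.85-fold). In 10 domains the approximate input background, computed from pileup and fold enrichment, was over 4 fragments, against a median of 2.88. These 10 held the highest pileups. A gene-free domain at chr2:77979227-77995566 had a pileup of 33.8 at 2.18-fold, the lowest fold enrichment of all, over a background of 14.97. A group of 3 domains at chr11:60586188-60651270 had pileups of 21.0 to 28.4 at 2.57-fold to 2.75-fold. Domains at Raet1e (23.1) and H60b (21.4), both ligands of an activating receptor of natural killer cells, over 5S rRNA genes of chromosome 8 (22.9) and over the tRNA gene n-TVcac2 (22.0) had high pileups at 3.16-fold to 3.64-fold. Among the other 660 domains the highest pileup was 15.2, and a domain in Celf5, which encodes an RNA-binding protein of neurons, had the fifth lowest fold enrichment, 3.15. Repeated sequence in these regions and its part in the values was not tested.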

How the data were processed

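ChIP and input libraries of mouse rib chondrocytes were compared, with 1 library in each group. Per the submitters' processing notes, CASAVA 1.8.4, Bowtie2 and MACS2 were used with mm10, the primary assembly of GRCm38. Per the file headers, MACS 2.1.0.20140616 called broad peaks with a listed q-value cutoff of 0.05 and a fragment length of 294 bp, and scaled the larger library to the smaller. The authors deposited for each peak its pileup (a coverage signal), its fold enrichment (a ratio of ChIP to local input, with 1 added to both) and −log10 p-values and q-values, each averaged over the peak. Mean q-values reached 0.0991, and the headers list no separate cutoff for weaker stretches linked in the broad mode. They also deposited Ensembl gene records within 5 kb of each peak, and the tool for this step is not given in the sources used here. A wide interval can be split by the caller where signal drops, so the width depends on depth and on the linking of weaker stretches.

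From these files, peaks were counted once by name, and those of 10 kb or more were kept. All 19359 peaks had the same values in both deposited tables. Genes came from the RefSeq table of GRCm38.p6 (21887 protein-coding genes, of which 17492 had an annotated start), and of 680 symbols at broad domains 662 were matched to it. Any overlap of a gene body counted. The input background was approximated as pileup plus 1, divided by fold enrichment, minus 1. Python 3.11.15 with pandas 2.3.3, numpy 2.4.6, scipy 1.17.1 and matplotlib 3.10.9 was used, and the interval functions were tested on simulated data. With 1 library per group no p-value was computed. For the X chromosome a count of 0 was taken to allow 3, and counts of 0 in gene lists have Wilson intervals. Shares have 95% Wilson intervals and medians rank-based intervals. Domains, gene lists (40) and the rule for named genes were chosen with earlier results of these data known. The rule took genes at the 10 widest domains, at the 5 highest and lowest fold enrichments and the 5 highest pileups, the 5 widest domains without a record, the 3 peaks either side of 10 kb, the 5 genes with most covered length, the 3 domains with most genes, the 3 densest runs and listed genes wholly covered (at most 4 per list). Genes named for gaps, partial cover, neighbours, microRNAs or promoter CpG were chosen after their values were seen. Alternatives were a width of 20 kb, a mean q-value of at most 0.01, a fold enrichment of at least 3.5, joining of peaks within 5 kb, and other definitions of overlap and distance. The gene table holds no exons, so exonic and intronic parts were not separated. Sequence came only from RefSeq promoter windows and microRNAs, and no whole-genome sequence was used.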

Additional observations from a re-analysis of the deposited data

How the results depend on the processing

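Of 84 alternative values for 14 results, 43 stayed within the interval of the reported value (counts within 1.5 times) and 41 moved. No paired analysis was possible because the ChIP and the input were single libraries, and none could be left out.

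A width of 20 kb left 165 domains with 11.02% of the covered length, a median fold enrichment of 3.59, a median pileup of 13.2, a gene record at 90.3%, a gene start at 79.2% of those, 223 symbols, 27.3% of transcription factor genes, 1.98% of signalling genes, 0 of the housekeeping genes, and another domain within 50 kb at 30.9%. The stricter q-value limit of 0.01 left 404 domains with 63.2% of the length of the peaks kept, medians of 3.58-fold and a pileup of 13.0, a record at 87.4%, 0 housekeeping genes and a neighbour at 39.4%. A fold enrichment of at least 3.5 left 329 domains with 64.6% of the length kept, medians of 3.605-fold and 13.04, a record at 90.0%, a start at 66.9%, 426 symbols, 39.0% of transcription factor genes, 4.46% of signalling genes, 0 housekeeping genes and a neighbour at 35.9%.

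Joining peaks within 5 kb gave 1801 domains with 64.6% of the length, medians of 3.31-fold and a pileup of 11.7, a record at 78.6%, a start at 45.8%, 1820 symbols, 61.3% of transcription factor genes and 22.8% of signalling genes. The changes follow from which peaks each rule keeps. Counting gene starts under a domain gave 36.0% of transcription factor genes, and a neighbour within 20 kb or 100 kb was found for 35.4% and 52.2% of domains. Leaving out the 10 domains of high input background, an alternative chosen after seeing the data, left all 14 results within their intervals or within 1.5 times.

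In each of these settings the share of transcription factor genes stayed above that of signalling genes, and at most 1 of 25 chondrocyte genes (Ihh) was counted. The depth (17237574 and 17004082 tags) sets the smallest enrichment that could be called, so a gene without a domain may carry the mark below it. Without replicates, no value here has a measured spread between samples.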
